A study of Mus musculus with 6 samples.

Results

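The genes that encode the apolipoproteins of very-low-density lipoprotein (VLDL) and high-density lipoprotein (HDL), together with the transfer protein that loads lipid onto VLDL, were followed in livers of mice with diet-induced metabolic dysfunction-associated steatohepatitis (MASH). The set held 10 genes, taken by symbol from the 25403 genes in the count table: Apob, Mttp, Apoa1, Apoa2, Apom, Apoa4, Apoa5, Apoc1, Apoc3 and Apoe. Each symbol occurred on a single row, and all 10 genes passed the filter on low counts. Poly(A) RNA was sequenced from whole liver of 3 wild-type C57BL6/J mice (WT) and 3 mice with a whole-body knockout of Themis (Themis-KO), a gene known as a regulator of T cell receptor signaling. Every mouse in both groups received the AMYLIN liver NASH diet (fat at 40% and fructose at 20% of energy, with 2% cholesterol) for 3 months from 10 to 12 weeks of age, so neither a chow-fed group nor a cell type-restricted deletion enters the comparison. The labels number the livers 1 to 3 in each group and do not state whether they came from separate cages or litters, and p-values measure the spread between these livers.

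The liver packages triglyceride and cholesteryl ester with a single apolipoprotein B molecule in the endoplasmic reticulum, where the microsomal triglyceride transfer protein adds lipid to the growing VLDL particle before export through the Golgi. Apolipoproteins A-I and A-II are the structural proteins of HDL, apolipoprotein E directs remnant particles to hepatic receptors, and the small C apolipoproteins and apolipoprotein A-V tune lipolysis of triglyceride in plasma. Several of these genes lie side by side in the genome and are transcribed in hepatocytes under liver-enriched factors such as HNF4-alpha.

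Before the members were compared, the targeted gene and the libraries were examined. Themis was measured at 8.07, 25.6 and 12.0 CPM (counts scaled to library size) in WT livers 1, 2 and 3, and at 8.63, 7.74 and 9.97 CPM in the livers labelled Themis-KO. WT liver 1 lay within the range of the other label, so the Themis count did not separate the labels (log2 fold change -0.79, SE 0.38, adjusted p = 0.199 with edgeR), and the sources used here do not give the exons that the allele removes. WT livers 1 and 2 also stood apart in mitochondrial reads: Gm28438, a sequence near-identical to mt-Nd3, took 96.6% and 96.8% of the counts of this pair of genes there, against 2.20 to 3.26% in WT liver 3 and the 3 livers labelled Themis-KO. Only WT liver 3 therefore shared its mitochondrial read type with the other group, and values with this type as a covariate are given for each member. In that edgeR fit 3 of the 14496 genes tested (0.0207%) had an adjusted p under 0.05. Library totals ran from 20679642 to 25649767 counts. Alb and 11 other hepatocyte markers were present in every liver, with a summed level of 73912 to 86145 CPM in WT and 68854 to 71272 CPM in livers labelled Themis-KO, a range that did not overlap. This separation rested on Alb: without it the other 11 summed to 34136 to 43867 CPM in WT and 33586 to 37614 CPM in livers labelled Themis-KO, which overlapped, and no hepatocyte marker was called. In whole liver, fewer hepatocytes and less RNA per hepatocyte cannot be told apart. Summed levels were higher without overlap for the stellate cell markers (452.6 to 511.8 CPM in WT, 683.5 to 735.9 CPM in livers labelled Themis-KO) and the cholangiocyte markers (217.5 to 262.9 and 414.9 to 647.5 CPM, but 54.9 to 103.0 and 48.6 to 76.9 CPM, with overlap, over the 8 markers other than Spp1), and overlapped for the macrophage markers (357.4 to 629.0 and 600.0 to 805.4 CPM). The part of these shifts in the members' values was not tested.

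The promoter sequences of 4 members are shown because they sit at the start of the genes on which the comparison turns: Apoa1 and Apoa4 are neighbors whose values pointed in opposite directions, Apoa2 pairs with Apoa1 on HDL, and Apob encodes the core protein of VLDL. Each run is the stretch of the RefSeq promoter window (GRCm38.p6) that ends at the base before the GENCODE start of the gene, written 5′ to 3′. Capitals mark matches, on either strand, to CAAAGNNCA, a core of the HNF4-type element, or to TATAAA, the TATA box; these letters do not overlap.
Apoa1 (chr9:46228380-46228579, plus strand): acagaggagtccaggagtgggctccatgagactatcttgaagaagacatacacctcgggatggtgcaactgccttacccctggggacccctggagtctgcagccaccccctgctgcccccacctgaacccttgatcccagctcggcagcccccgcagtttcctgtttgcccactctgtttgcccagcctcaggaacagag
Apoa2 (chr1:171224804-171225053, plus strand): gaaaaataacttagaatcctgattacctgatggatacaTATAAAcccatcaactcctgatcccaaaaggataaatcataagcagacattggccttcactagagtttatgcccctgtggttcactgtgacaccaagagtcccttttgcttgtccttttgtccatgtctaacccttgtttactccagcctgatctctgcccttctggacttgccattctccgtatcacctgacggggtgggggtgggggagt
Apoa4 (chr9:46240594-46240695, plus strand): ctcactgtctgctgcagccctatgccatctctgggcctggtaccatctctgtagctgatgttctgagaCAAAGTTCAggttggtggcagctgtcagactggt
Apob (chr12:7977427-7977647, plus strand): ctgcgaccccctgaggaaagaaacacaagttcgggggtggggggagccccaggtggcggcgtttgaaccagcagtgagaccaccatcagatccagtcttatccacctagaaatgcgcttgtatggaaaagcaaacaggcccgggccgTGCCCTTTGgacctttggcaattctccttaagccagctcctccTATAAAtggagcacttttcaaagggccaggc

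The Apoa4 stretch of 102 bases held an HNF4-type match that began 34 bases before the start of the gene. Apob held an HNF4-type match on the minus strand, beginning 74 bases before the start, and a TATA box 31 bases before it. Apoa2 carried TATAAA 212 bases upstream, and Apoa1 carried neither motif in its 200 bases. Over full windows of 250 bases before to 50 bases after a RefSeq start, 8 of the 10 members had an entry (Apoc1 and Apoc3 had none). Of those 8, Apoa4 and Apob held the HNF4-type letters, as did 6.36% of 32817 promoters, and Apoa2, Apoa5, Apob and Apoe held TATAAA in at least 1 window, as did 13.6% of promoters. A match describes letters and says nothing of whether a factor bound there. Only these exact letters were searched, so a stretch without a match, such as that of Apoa1, may hold another form of the element.

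As a group, the members were among the most abundant transcripts of these livers. Together they took 5.26, 5.81 and 5.24% of all counts in WT livers 1 to 3 and 5.75, 5.44 and 5.80% in the livers labelled Themis-KO. The means of 5.44 ± 0.324% and 5.66 ± 0.195% (SD, n = 3 each) did not differ beyond the spread (exact permutation test, two-sided, p = 0.4; the smallest p that 3 against 3 livers allow is 0.1). Apoe, the remnant ligand, alone held 61.6 to 66.7% of the members' counts and ranked between 1 and 3 among all genes in each liver. Per kilobase of transcript, the mean level in WT ran from Apoe (26225 CPM per kb) through Apoa2 (6074), Apoa1 (4681), Apoc1 (3959), Apoa4 (2207), Apoc3 (1208), Apoa5 (462) and Apob (281) to Mttp (91.3) and Apom (55.2 CPM per kb). Among neighbors in that order, Apoa1 and Apoc1 lay near each other (SD 334 and 253 CPM per kb), and in the livers labelled Themis-KO Apoa4 (3434 ± 374 CPM per kb) lay beside Apoc1 (3388 ± 267) within their spread. The level of Apom, the lipocalin-fold apolipoprotein that carries sphingosine 1-phosphate on HDL, was lowest in both groups.

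**Figure D1:**
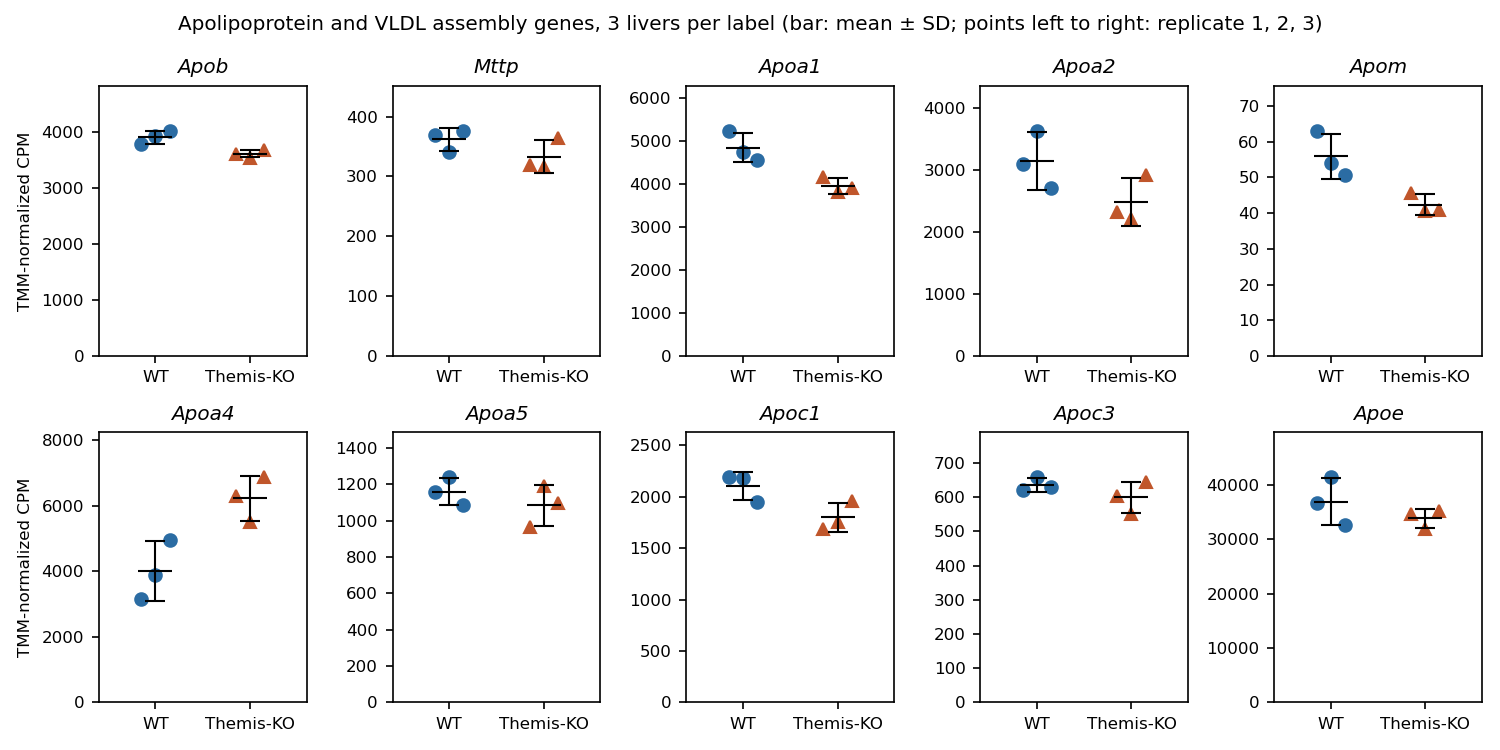
TMM-normalized CPM (y axis, from 0) of each of the 10 genes in 3 WT livers (circles) and 3 livers labelled Themis-KO (triangles), with bars for mean ± SD. The groups are separate for Apoa4, which was higher in the livers labelled Themis-KO, and for Apoa1, Apom and Apob, which were lower there.

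No member passed an adjusted p of 0.05 in edgeR's quasi-likelihood test, whereas 9.11% of the 14496 genes tested did (4.97% were called higher in the Themis-KO label and 4.14% lower). Unadjusted p-values under 0.05 were found for 3 of 10 members (Apoa1, Apoa4 and Apom) and for 4449 of 14496 genes. DESeq2 called the same 3 genes (17.0% of genes tested called), and limma-voom called none (8.46% of genes tested called). Of the 10 log2 fold changes 9 were negative, with a median of -0.12 against 0.0095 over all genes tested. The groups did not overlap for 4 members, Apoa4 above and Apoa1, Apob and Apom below, where 34.6% of all genes did not overlap (17.7% higher and 16.9% lower). DESeq2's 3 of 10 and the 3 of 10 lower without overlap were above their background shares. The edgeR count and the 1 of 10 higher without overlap were below theirs. The 3 of 10 with an unadjusted p under 0.05 and the 4 of 10 without overlap in all were near theirs. With only 10 members, none of these counts was tested against its share.

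Apob and Mttp, the pair that forms the VLDL precursor, had log2 fold changes of like size, and neither passed the test. Apob (ENSMUSG00000020609, chr12:7977648-8016835, plus strand, 29 exons), the non-exchangeable structural protein of VLDL, was measured at 3788, 3922 and 4019 CPM in WT and 3615, 3545 and 3671 CPM in livers labelled Themis-KO. The groups were separate but narrow, with the highest liver labelled Themis-KO just under the lowest WT liver (log2 fold change -0.12, 95% interval -0.33 to 0.10, edgeR adjusted p = 0.421). Mttp (ENSMUSG00000028158, chr3:138089854-138144968, minus strand, 18 exons), the transfer protein, stood at 369, 340 and 376 CPM against 319, 315 and 365 CPM. Here the third liver labelled Themis-KO fell within the WT range (log2 fold change -0.12, interval -0.34 to 0.10, adjusted p = 0.415). The ratio of Mttp to Apob counts within a liver, which does not depend on scaling between libraries, was 0.0974, 0.0867 and 0.0935 in WT and 0.0881, 0.0889 and 0.0993 in livers labelled Themis-KO (exact permutation p = 1). The interval of each fold change holds decreases and increases of modest size, so a missed threshold does not show that these transcripts were equal.

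The HDL genes had lower mean levels in the livers labelled Themis-KO, though none passed the edgeR threshold. Apoa1 (ENSMUSG00000032083, chr9:46228580-46230466, plus strand, 4 exons), which activates lecithin-cholesterol acyltransferase and forms the HDL scaffold, was measured at 5229, 4747 and 4558 CPM in WT and 4168, 3800 and 3895 CPM in livers labelled Themis-KO. All 3 WT livers were above all 3 others (log2 fold change -0.29, SE 0.10, interval -0.53 to -0.05), but the adjusted p was 0.107 in edgeR and 0.0228 in DESeq2. Apom (ENSMUSG00000024391, chr17:35128997-35132050, minus strand, 6 exons) showed the largest negative value of the set, at 63.0, 54.1 and 50.7 CPM against 45.7, 40.5 and 41.0 CPM. No liver crossed between the groups (log2 fold change -0.40, SE 0.11, interval -0.64 to -0.16, edgeR adjusted p = 0.0542), and DESeq2 placed the gene past the threshold (adjusted p = 0.0166). Apoa2 (ENSMUSG00000005681, chr1:171225054-171226379, plus strand, 4 exons), the second structural protein of HDL, was measured at 3100, 3631 and 2709 CPM in WT and 2319, 2208 and 2926 CPM in livers labelled Themis-KO. The third liver labelled Themis-KO lay within the WT range, and the log2 fold change of -0.34 (SE 0.15, adjusted p = 0.175) became -0.49 (adjusted p = 0.0397) without it, in a comparison in which 28.8% of all genes were called. With the mitochondrial read type as a covariate the log2 fold changes of Apoa1, Apoa2 and Apom were -0.21, -0.12 and -0.26 (adjusted p = 0.616, 0.838 and 0.547).

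Apoa4 was the single member with a higher level in the livers labelled Themis-KO. Apolipoprotein A-IV is an exchangeable protein of chylomicrons, VLDL and HDL that intestine makes in quantity and mouse liver makes as well. Its transcript (ENSMUSG00000032080, chr9:46240696-46243459, plus strand, 3 exons) was measured at 3163, 3881 and 4971 CPM in WT and 6315, 5517 and 6868 CPM in livers labelled Themis-KO, so every liver of the latter group was above every WT liver. The mean was 4005 ± 910 CPM against 6233 ± 679 CPM (SD, n = 3 each), and the log2 fold change of 0.64 (SE 0.18, interval 0.23 to 1.05, a difference of 55.6%) had an adjusted p of 0.0605 in edgeR and 0.0054 in DESeq2. The WT livers themselves spread widely: liver 3, which shared its mitochondrial read type with the livers labelled Themis-KO, was the highest of them. Without WT liver 3 the log2 fold change was 0.82 (adjusted p = 0.0346, with 5.73% of all genes called), and with the read type as a covariate it was 0.33 (adjusted p = 0.566). As a share of all counts, Apoa4 held 0.295, 0.364 and 0.491% in WT and 0.663, 0.591 and 0.703% in livers labelled Themis-KO. Intestinal RNA was looked for through enterocyte markers: Cdx2, Alpi, Lct and Mep1b were at 0 to 0.19 CPM in every liver and Vil1 at 0.17 to 0.64 CPM. Slc5a1 stood at 1.54 to 2.61 CPM in WT and 1.98 to 4.46 CPM in livers labelled Themis-KO (log2 fold change 0.66, adjusted p = 0.220), and Fabp2, a fatty acid binding protein that liver also makes, at 117 to 139 CPM and 88.8 to 112 CPM (-0.34, adjusted p = 0.0975).

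Reads on the opposite strand bear on this value. The exons of Apoa4 share 634 of their 1815 bases with Gm47528 and 632 with Gm10680, both transcribed from the other strand, and whether counting used strand is not given in the sources used here. Gm47528 was measured at 6.61, 4.75 and 13.6 CPM in WT and 14.0, 14.6 and 16.1 CPM in livers labelled Themis-KO, a small number beside the counts of Apoa4. Reads of these genes and Apoa4 cannot be told apart there. Apoa5 overlaps Gm47544 (524 exon bases) and Mttp overlaps Trmt10a (457 exon bases) in the same way, and Trmt10a stood at 5.05 to 6.84 CPM over the 6 livers.

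None of the genes that tune plasma lipolysis or remnant uptake passed the test. Apoc3 (ENSMUSG00000032081, chr9:46232933-46235636, minus strand, 4 exons), an inhibitor of lipoprotein lipase and of remnant uptake, was measured at 621, 657 and 628 CPM in WT and 603, 551 and 643 CPM in livers labelled Themis-KO (log2 fold change -0.08, interval -0.30 to 0.13, adjusted p = 0.562 in edgeR). Apoa5 (ENSMUSG00000032079, chr9:46268633-46271919, plus strand, 4 exons), which promotes lipolysis, stood at 1156, 1238 and 1089 CPM against 967, 1190 and 1100 CPM (log2 fold change -0.10, interval -0.35 to 0.16, adjusted p = 0.575). The groups overlapped for both genes. Apoc1 (ENSMUSG00000040564, chr7:19689481-19692660, minus strand, 3 exons), an inhibitor of lipoprotein lipase and of receptor binding, had 2188, 2180 and 1951 CPM in WT and 1689, 1757 and 1961 CPM in livers labelled Themis-KO, with WT liver 3 and the third liver labelled Themis-KO nearly level (log2 fold change -0.22, interval -0.47 to 0.02, adjusted p = 0.186). Apoe (ENSMUSG00000002985, chr7:19696109-19699188, minus strand, 4 exons) was measured at 36744, 41381 and 32649 CPM in WT and 34674, 31868 and 35146 CPM in livers labelled Themis-KO, and 2 of the latter group exceeded WT liver 3. Its log2 fold change was -0.12 (interval -0.44 to 0.19, adjusted p = 0.561), and it was 0.05 with the mitochondrial read type as a covariate. With that covariate Apoc1 was at -0.11, Apoa5 at -0.0042, Apoc3 at -0.07, Apob at -0.15 and Mttp at -0.18 (adjusted p = 0.783, 0.994, 0.873, 0.679 and 0.659).

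The direction of the small differences depended on how libraries were scaled. With total counts alone the median log2 fold change over all genes was 0.15, and with scaling to the 12 hepatocyte markers it was 0.24, compared with 0.0095 under TMM. The log2 fold changes of Apoa5, Apob, Apoc3, Apoe and Mttp became positive under both scalings (0.02 to 0.05 with total counts, 0.10 to 0.15 with hepatocyte markers), and Apoc1 became positive with hepatocyte markers alone (0.0047). Apoa1, Apoa2 and Apom stayed negative at -0.15, -0.20 and -0.26 with total counts and at -0.05, -0.12 and -0.16 with hepatocyte markers. Relative to the median of all genes, 9 members were below it and Apoa4 was above it under either scaling, with Apoa4 at 0.62 above in both. Apoa4 itself was 0.77 (adjusted p = 0.0373, 12.7% of all genes called) with total counts and 0.86 (adjusted p = 0.0255, 15.9% of all genes called) with hepatocyte markers. Without a filter on low counts Apoa4 and Apom passed (adjusted p = 0.0118 and 0.0299, 8.58% of all genes called).

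**Figure D2:**
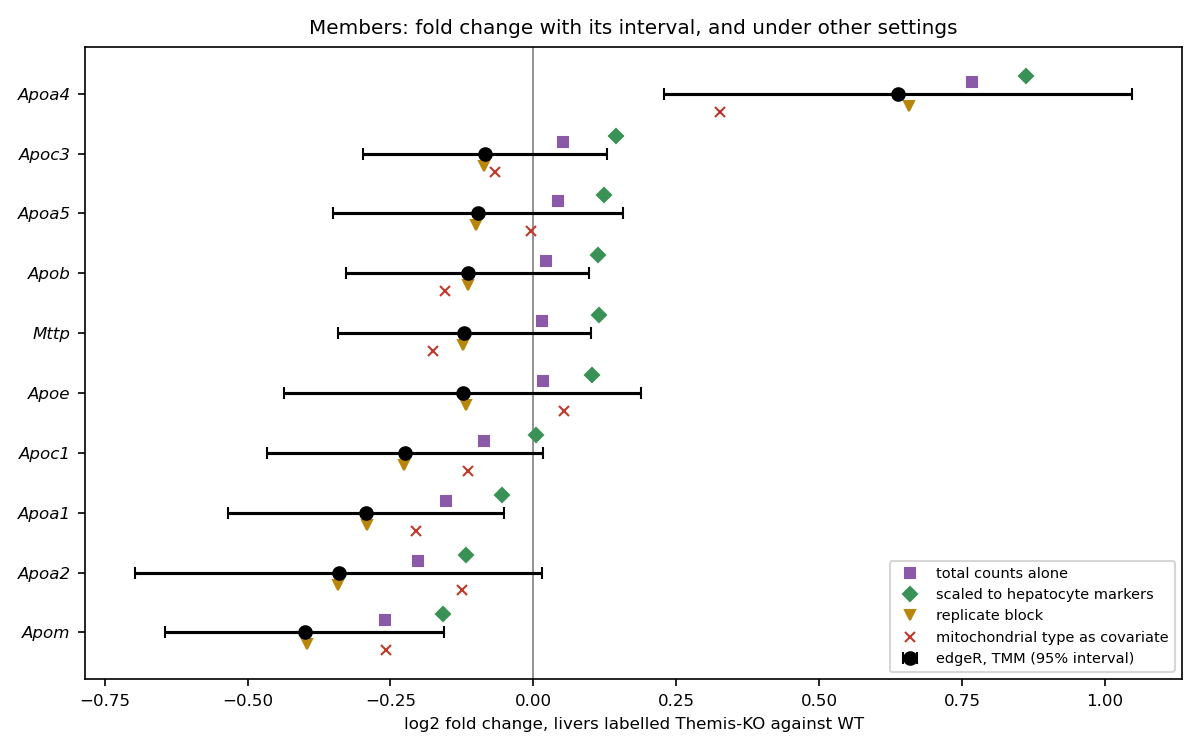
Log2 fold change of each member between livers labelled Themis-KO and WT (x axis), with the edgeR estimate and its 95% interval in black and 4 other settings as colored symbols. Apoa4 lies to the right of 0 and Apom, Apoa2 and Apoa1 to the left in every setting drawn, and the 6 other genes change side in at least 1 of them.

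Ratios between genes within a liver removed the scaling between libraries, and 10 pairs were compared. The Apoa4 to Apoa1 ratio was 0.605, 0.818 and 1.09 in WT and 1.52, 1.45 and 1.76 in livers labelled Themis-KO, a 1.93-fold difference with no overlap. Apoa1 counts thus exceeded those of Apoa4 in WT livers 1 and 2 only. The ratio of Apoc3 to Apoa1 was also separate, at 0.119, 0.138 and 0.138 against 0.145, 0.145 and 0.165 (1.15-fold). Its log2 difference of 0.20 was 0.13 without WT liver 1 and 0.14 without the third liver labelled Themis-KO (exact permutation p = 0.3 for both). Apom to Apoa1 was separate in the other direction, at 0.0121, 0.0114 and 0.0111 against 0.0110, 0.0107 and 0.0105. Each of these 3 reached the smallest p that the exact permutation test allows (p = 0.1, 0.333 after Benjamini-Hochberg adjustment over 10 pairs). The other 7 pairs overlapped: exact permutation p was 0.8 for Apoa1 to Alb, 0.2 for Apob to Alb, 0.5 for Apoe to Alb, 0.5 for Apoa2 to Apoa1, 0.3 for Apoc1 to Apoe and 0.3 for Apoa5 to Apoa1, beside Mttp to Apob above. Albumin, the chief secreted protein of hepatocytes, itself had a log2 fold change of -0.26 (edgeR adjusted p = 0.185), so Apoa1 relative to Alb differed by -0.03 on the log2 scale.

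**Figure D3:**
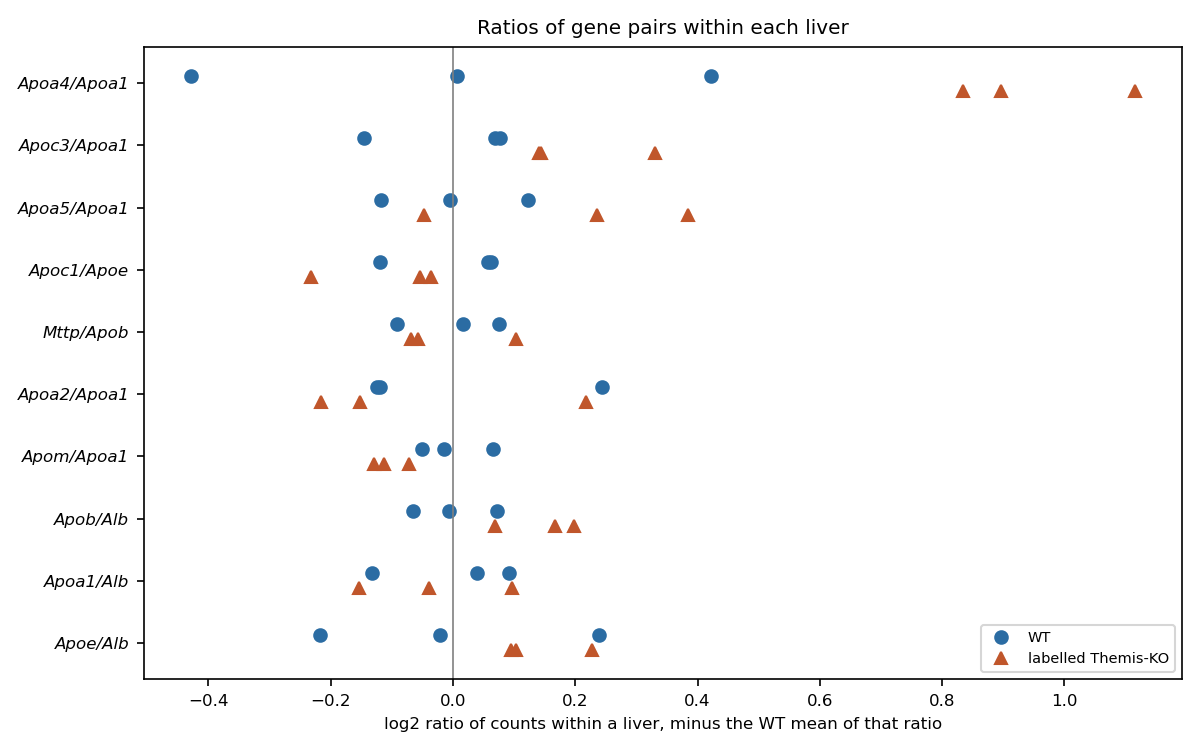
Log2 ratio of counts for 10 gene pairs within each liver, minus the WT mean of that pair (x axis), with WT livers as circles and livers labelled Themis-KO as triangles. The Apoa4 to Apoa1 ratio has the widest separation, and 7 pairs overlap.

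Apoa4 differed in sign from the members beside it in the genome. On chromosome 9, Apoa1, Apoc3, Apoa4 and Apoa5 lie within 43.3 kb, and their log2 fold changes in that order were -0.29, -0.08, 0.64 and -0.10. Apoa4 starts 12.1 kb from the start of Apoa1, and Apoc3, on the opposite strand, starts between them. The next genes beyond Apoa5 were Zpr1 (log2 fold change 0.03) and Bud13 (0.20), and neither passed the test (edgeR adjusted p = 0.926 and 0.587). On chromosome 7, Apoe and Apoc1 lie within 9.7 kb and had values of -0.12 and -0.22. Their neighbors Apoc4 (-0.27, adjusted p = 0.132) and Apoc2 (0.35, adjusted p = 0.0755), a cofactor of lipoprotein lipase, had groups that did not overlap and pointed in opposite directions. Over the list of 18 neighbors of both clusters, 1 gene was called, Bcam, a laminin receptor, which rose (log2 fold change 0.73, adjusted p = 0.0392) from 4.13 to 5.09 CPM in WT to 6.97 to 8.97 CPM. This share lay below the 9.11% of all genes called, and the median of the list was 0.16.

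**Figure D4:**
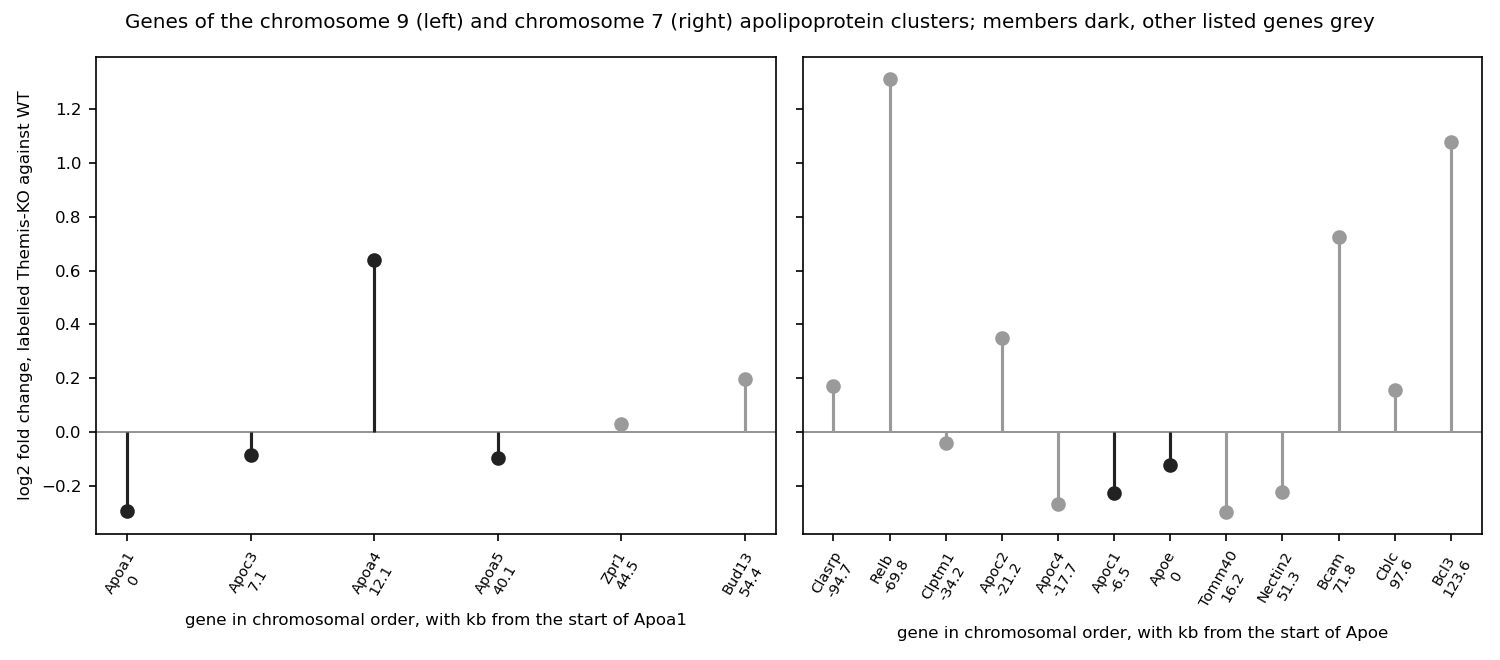
Log2 fold change (y axis) of genes in chromosomal order, labelled with distance in kb from the start of Apoa1 (left) or Apoe (right), with members dark and other genes grey. Apoa4 at 0.64 stands between Apoc3 and Apoa5, both slightly below 0.

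Around the members, called genes lay mainly on the lower side in a list of other apolipoproteins and HDL-borne proteins. The list also held genes grouped with them by name or as plasma carriers, such as Apoo, Rbp4 and Hpx, the last also a hepatocyte marker here. Of 22 genes of this list tested, 7 fell and none rose, where 4.14% of all genes tested fell and 4.97% rose. The median log2 fold change was -0.33. Scaled to hepatocyte markers, 2 were called lower and none higher, where 15.9% of all genes were called. The median was -0.06 there, against 0.24 over all genes. With total counts alone 4 were called lower and 2 higher, where 12.7% of all genes were called. DESeq2 called 9 lower and 1 higher, where 17.0% of all genes were called. The antioxidant HDL enzyme Pon1 fell from 422, 486 and 374 CPM to 256, 245 and 282 CPM (log2 fold change -0.71, edgeR adjusted p = 0.0223). Apoh, which binds phospholipid, fell from 1103, 1125 and 928 CPM to 754, 717 and 824 CPM (-0.46, adjusted p = 0.0429). Apol9b (-0.89, adjusted p = 0.0223) and Apol9a (-0.68, adjusted p = 0.0384) are near-identical copies between which reads may have been split. The remaining calls were the retinol carrier Rbp4 (-0.45, adjusted p = 0.0405), Apon (-0.45, adjusted p = 0.0408) and Lcat, the enzyme that esterifies HDL cholesterol (-0.38, adjusted p = 0.0414), named after their values were seen. Among the apolipoproteins of this list that were not called, Clu overlapped between the groups (0.20, adjusted p = 0.292). Over the 22 genes, 3 were higher without overlap and 13 lower, beside 17.7% and 16.9% of all genes. The 3 higher genes were Apoc2 (0.35), Pltp (0.40) and Hpx (0.23), and none was called.

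Of 44 VLDL assembly and export genes, 1 rose and 3 fell, a share near the 9.11% of all genes, with a median of -0.08. Scaled to hepatocyte markers, 5 were called higher and 1 lower, where 15.9% of all genes were called. The median was 0.15 there, below the 0.24 over all genes. Cidec, a lipid droplet protein, rose from 120.5, 150.6 and 147.0 CPM to 222, 220 and 199 CPM (log2 fold change 0.62, adjusted p = 0.0249 in edgeR). Acsl1, which activates fatty acids, fell from 1242, 1305 and 1154 CPM to 747, 619 and 683 CPM (-0.85, adjusted p = 0.0115). A1cf, the cofactor of Apob mRNA editing, fell from 63.9, 74.1 and 76.7 CPM to 38.8, 36.3 and 51.9 CPM (-0.76, adjusted p = 0.0302), and the microsomal deacetylase Aadac fell by 0.53 on the log2 scale (adjusted p = 0.0251). The editing enzyme Apobec1 had a log2 fold change of 0.62 with groups that overlapped (adjusted p = 0.107). The COPII component Sar1b (-0.24, adjusted p = 0.160) and the lipidation factor Tm6sf2 (-0.17, adjusted p = 0.428) did not pass.

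Of 32 genes of plasma lipolysis, HDL remodelling and lipoprotein receptors, 2 rose and 3 fell (median -0.05), beside 4.97% and 4.14% of all genes. Scaled to hepatocyte markers, 3 were called higher and none lower, where 15.9% of all genes were called. The median was 0.18 there, below the 0.24 over all genes. Lpl, lipoprotein lipase, rose from 57.6, 43.1 and 64.6 CPM to 96.1, 107 and 76.1 CPM (log2 fold change 0.76, edgeR adjusted p = 0.0412), and the sterol exporter Abcg1 rose by 0.60 (adjusted p = 0.0372). Gpld1, a phospholipase carried on HDL, fell (-0.64, adjusted p = 0.0131), as did Lcat and the low-level receptor Lrp2, which was under 1 CPM in every liver (-1.62, adjusted p = 0.0438). Scarb1, the HDL receptor (-0.35, adjusted p = 0.0550), and Abca1, which lipidates Apoa1 (-0.33, adjusted p = 0.0562), had separate groups and missed the threshold.

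Among 37 transcriptional regulators of apolipoprotein genes, none rose and 3 fell, near the 9.11% called over all genes, with a median of -0.16. Scaled to hepatocyte markers the list had 2 genes called higher and none lower, where 15.9% of all genes were called. Its median was 0.07 there, below the 0.24 over all genes. Ppara, the fatty acid receptor, fell from 129, 118 and 122 CPM to 80.1, 78.9 and 99.2 CPM (log2 fold change -0.52, edgeR adjusted p = 0.0345). Its partner Rxra (-0.42, adjusted p = 0.0351) and the corepressor Nr0b2 (-0.73, adjusted p = 0.0397) fell as well. Hnf4a, the factor of the letters shown for Apoa4 and Apob, was measured at 499, 421 and 429 CPM in WT and 462, 542 and 388 CPM in livers labelled Themis-KO, with overlap (0.05, adjusted p = 0.842). With the mitochondrial read type or the replicate number in the fit, 0 of the 19 distinct genes called over the 5 lists passed. Few genes passed in those fits: 0.0207% of all genes with the read type and 0.428% with the replicate number. Every rise and fall given for the 19 genes rests on the fit without those terms. Leaving out WT liver 1, or liver 1 or 2 labelled Themis-KO, left 0 of the list genes called. In those fits 0.297%, 0.136% and 0.46% of all genes were called. Leaving out liver 3 labelled Themis-KO gave 55, where 28.8% of all genes were called. With the read type all 19 kept their sign. A1cf (-0.86), Nr0b2 (-0.80) and Lrp2 (-1.65) were larger in size there than without it. The other called genes were smaller, among them Apoh at -0.28, Abcg1 at 0.38 and Ppara at -0.51. The directions of these 19 genes held under total counts and hepatocyte marker scaling, but with total counts Apoh, Apon, Lcat, Nr0b2 and Rxra missed the threshold (edgeR adjusted p 0.0534 to 0.0772), and with hepatocyte markers the log2 fold changes were smaller for genes that fell (Apoh -0.23, Rxra -0.19).

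**Figure D5:**
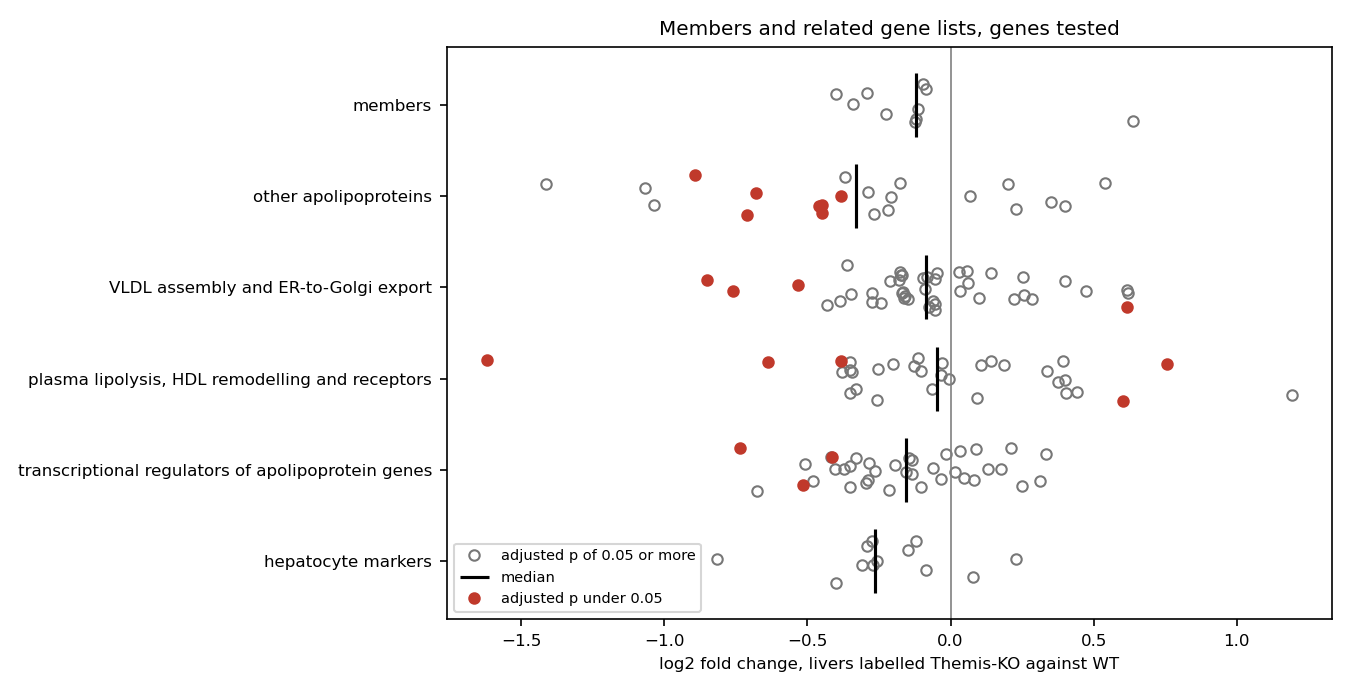
Log2 fold change (x axis) of each tested gene in the members, 4 related lists and the hepatocyte markers, with filled red points for an edgeR adjusted p under 0.05 and black bars for medians. The members hold no filled point, and the filled points of the other apolipoproteins and of the regulators all lie left of 0.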

How the data were processed

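Per the labels and the study's methods, poly(A) libraries of whole liver RNA were sequenced in paired-end mode. The submitters' processing notes name cutadapt 2.3, STAR 2.7.8a and RSEM 1.3.3 with GRCm38, and the authors deposited estimated counts (RSEM expected counts, not normalized) per gene; the annotation release and strand setting are not given in the sources used here. The estimated counts were rounded to whole numbers before the fit. Low genes were removed with filterByExpr (14496 of 25403 kept), and WT and Themis-KO livers (3 each) were compared with edgeR 4.0.16 (TMM, quasi-likelihood test, Benjamini-Hochberg adjustment over all genes tested, threshold 0.05). CPM values are TMM-normalized. Gene positions are from GENCODE on GRCm38. Ratios and shares were compared with an exact two-sided permutation test. Alternatives were DESeq2 1.42.0, limma-voom 3.58.1, other scalings and filters, a replicate block, the mitochondrial read type and leaving out each liver. Replicate libraries differed beyond sampling noise (chi-square divided by its degrees of freedom, at least 9.81), so none was a duplicate. The fit was tested on simulated data.

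The members and all lists were chosen with earlier results of these data known. All members were named; from each list, the called genes with the largest absolute log2 fold change were named, at most 4 in each direction. Rbp4, Apon, Lcat and list genes that were not called were named after their values were seen. Genes most like a member were to be named only for members past the threshold, and there were none. All 6 value columns were matched to samples.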

Additional observations from a re-analysis of the deposited data

How the results depend on the processing

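The count of members past the threshold was 0 in the edgeR fit with TMM (9.11% of all genes called). It was 1 with RLE factors (9.11%), upper quartile scaling (8.44%), total counts (12.7%) or hepatocyte markers (15.9%). It was 2 without a filter on low counts (8.58%) or at an adjusted p under 0.1 (no share of all genes given). DESeq2 gave 3 (17.0%). Leaving out each liver gave 0 to 2, where 0.136% to 28.8% of all genes were called. Apoa4 passed without WT liver 3 (5.73%), and Apoa2 and Apom without the third liver labelled Themis-KO (28.8%). The log2 fold change of Apoa4 passed at 0.77 with total counts, 0.86 with hepatocyte markers, 0.62 without a filter and 0.63 with DESeq2. Apom passed at -0.41 with RLE factors, -0.40 with upper quartile scaling, -0.41 without a filter and -0.41 with DESeq2, and Apoa1 at -0.30 with DESeq2. Leaving out each liver gave 0.49 to 0.82 for Apoa4, -0.47 to -0.31 for Apom and -0.49 to -0.23 for Apoa2. Signs turned with total counts for Apoa5 (0.0438), Apob (0.0223), Apoc3 (0.0525), Apoe (0.0170) and Mttp (0.0152), with hepatocyte markers for Apoa5 (0.12), Apob (0.11), Apoc1 (0.0047), Apoc3 (0.15), Apoe (0.10) and Mttp (0.11), and with the mitochondrial read type for Apoe (0.0541). Ratios also turned sign when a liver was left out: Mttp to Apob (-0.0629 to 0.0301), Apoa2 to Apoa1 (-0.184 to 0.0721) and Apoa1 to Alb (-0.0984 to 0.0280). The cause was not tested.

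Over the 5 lists, 19 genes were called, where 9.11% of all genes were. Without a filter 29 were called (8.58% of all genes) and with DESeq2 34 (17.0%). At an adjusted p under 0.1 the count was 38, for which no share of all genes is given. With the mitochondrial read type 0 were called (0.0207%). Leaving out a liver gave 0 without WT liver 1 (0.297%) or livers 1 or 2 labelled Themis-KO (0.136% and 0.46%). It gave 1 without WT liver 2 (0.512%), 14 without WT liver 3 (5.73%) and 55 without liver 3 labelled Themis-KO (28.8%). Deviations from the group means were not shared between livers of equal number (r = 0.01, -0.35 and -0.19, mean -0.17, against 0.09 for different numbers). Deviations taken from means of 3 livers cannot show whether the numbers pair the livers. With a replicate block 62 genes of all tested and 0 of the list genes were called, 0 members passed, and Apoa4 had a log2 fold change of 0.66 (adjusted p = 0.106).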
